A study of Mus musculus with 5 samples.

Results

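The genes described here encode the nuclear subunits of the mitochondrial respiratory chain and of ATP synthase, and the data are regions of the genome enriched for the histone variant macroH2A1.2 around them. Members were the autosomal protein-coding genes of GENCODE M21 (mm10) whose symbol starts with Ndufa, Ndufb, Ndufc, Ndufs, Ndufv, Uqcr, Atp5 or Cox4 to Cox8, or is Sdha, Sdhb, Sdhc, Sdhd, Cycs or Cyc1. This gave 93 gene records with 92 symbols out of 20807 autosomal protein-coding genes. They comprised 36 genes of complex I and 8 complex I assembly factors (symbols starting with Ndufaf), 4 of complex II, 9 of complex III, 17 of complex IV, 18 of complex V (ATP synthase) and cytochrome c. Atp5o has 2 records, a gene of 6474 bp (chr16:91925214-91931687) and a record of 242585 bp that spans Itsn1 (chr16:91684398-91926982), and theirs were the only member windows that overlapped each other.

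The ChIP-Seq samples were 3T3-L1 cells, a mouse line that can be induced to become adipocytes. They were transduced with a lentivirus for stable expression of macroH2A1.2 fused to GFP, so every sample carried the tagged protein. The paper reports that this transgene markedly lowered the cells' own macroH2A1.2 throughout differentiation, compared with cells expressing GFP. Chromatin digested with MNase was precipitated with an anti-GFP antibody (ab290) in 4 samples, a pair of pre-adipocyte replicates and a pair of mature adipocyte replicates, and a single library made without antibody served as the control of all 4. Per the labels, differentiation used IBMX, dexamethasone and insulin (the XDI cocktail) for 60 h and then medium without IBMX and dexamethasone, with no final day given. Conditions rest on the sample titles, since the description fields of the mature samples name the state before differentiation. The methods paragraph on chromatin immunoprecipitation names adipose tissue of mice, whereas the labels name 3T3-L1 cells. No library of cells expressing GFP alone was analysed here. The regions carry no expression values, so neither the adipocyte state nor the genes' transcription could be checked here. In the paper, cells with this transgene accumulated less lipid on differentiation than cells expressing GFP, so mature adipocyte is the name of the condition. Nothing in the labels says that replicates came from separate cultures.

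Complexes I and II pass electrons from NADH and succinate to ubiquinone, complex III passes them to cytochrome c, and complex IV passes them to oxygen, while complex V uses the resulting proton gradient to make ATP. Most subunits are encoded in the nucleus by short, broadly expressed genes whose transcription is linked to the factors NRF1, GABP (an ETS factor), YY1 and ERR and to the coactivator PGC-1. MacroH2A variants carry a large C-terminal macro domain, tend to lie in broad domains of chromatin, and are best known from the inactive X chromosome and from silent genes, although they also occur at some active ones. Mitochondria are known to increase in number as 3T3-L1 cells become adipocytes.

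Values of the 4 samples are given below in the order pre-adipocyte replicate 1, pre-adipocyte replicate 2, mature replicate 1 and mature replicate 2. The authors' regions numbered 36468, 38546, 59375 and 61196, with a median length of 5800, 3000, 3600 and 3400 bp. Library sizes relative to the shared control were 1.202, 0.549, 1.23 and 1.21, so pre-adipocyte replicate 2 was the shallowest, and its median region held 57 ChIP reads against 186, 128 and 121 in the others. A gene was counted as having a region when a region overlapped its body or the 10 kb on either side by at least 1 bp. A gene without a region was one where none passed the authors' threshold, which at these depths does not show that macroH2A1.2-GFP was absent.

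Sequences of 5 promoters are shown, 3 that lay wholly inside a region in a sample (Ndufv1, Ndufa4 and Atp5o), 1 that lay partly inside (Atp5g3) and 1 that lay in none (Cycs). They are from RefSeq (GRCm38.p6), written 5′ to 3′ along the gene and cut at the outermost GENCODE start. Capitals mark a match to a motif searched for, which is NRF1 in Cycs and ERR in Atp5g3. The set was chosen after the values were seen, and was changed when the search window was shortened.
Ndufv1, chr19:4012807-4013005, minus strand: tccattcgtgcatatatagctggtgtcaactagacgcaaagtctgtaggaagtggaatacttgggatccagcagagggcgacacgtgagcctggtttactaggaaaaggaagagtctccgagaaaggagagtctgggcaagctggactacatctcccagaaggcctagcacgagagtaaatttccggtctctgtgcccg
Ndufa4, chr6:11907498-11907700, minus strand: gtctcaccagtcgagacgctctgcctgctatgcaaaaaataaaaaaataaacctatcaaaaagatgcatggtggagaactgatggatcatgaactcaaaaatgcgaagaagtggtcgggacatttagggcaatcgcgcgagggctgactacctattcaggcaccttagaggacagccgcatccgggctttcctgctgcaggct
Atp5o, chr16:91931688-91931880, minus strand: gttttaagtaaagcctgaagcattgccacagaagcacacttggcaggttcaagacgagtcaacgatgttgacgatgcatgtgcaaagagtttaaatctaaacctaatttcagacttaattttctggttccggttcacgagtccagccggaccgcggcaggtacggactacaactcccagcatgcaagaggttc
Atp5g3, chr2:73911327-73911576, minus strand: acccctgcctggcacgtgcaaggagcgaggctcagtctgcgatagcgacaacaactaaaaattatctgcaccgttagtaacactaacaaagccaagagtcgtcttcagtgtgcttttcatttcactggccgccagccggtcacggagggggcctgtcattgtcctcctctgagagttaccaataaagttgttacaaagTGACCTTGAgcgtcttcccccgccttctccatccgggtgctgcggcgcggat
Cycs, chr6:50566570-50566819, minus strand: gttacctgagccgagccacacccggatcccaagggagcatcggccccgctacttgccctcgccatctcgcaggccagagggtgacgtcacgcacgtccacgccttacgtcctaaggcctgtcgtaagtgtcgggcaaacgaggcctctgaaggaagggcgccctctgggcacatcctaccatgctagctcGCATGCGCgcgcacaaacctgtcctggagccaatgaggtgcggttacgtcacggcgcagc

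Respiratory chain genes had regions nearby less often than the average gene in each of the 4 samples. A region lay within 10 kb of 19, 20, 31 and 27 members, or 20.4%, 21.5%, 33.3% and 29.0% of them. Over all autosomal genes the shares were 35.0%, 30.3%, 41.4% and 41.6%. Members are short, with a median length of 7.46 kb (0.953 to 242.585 kb) against 17.6 kb over all genes, and a shorter window meets fewer regions. When the shares over all genes were weighted to the members' lengths (10 length classes), they were 29.5%, 24.1%, 34.8% and 35.0%. The members' shares were lower than these too, by little in pre-adipocyte replicate 2 and mature replicate 1. Genes are not replicates, and this comparison carries no test.

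**Figure D1:**
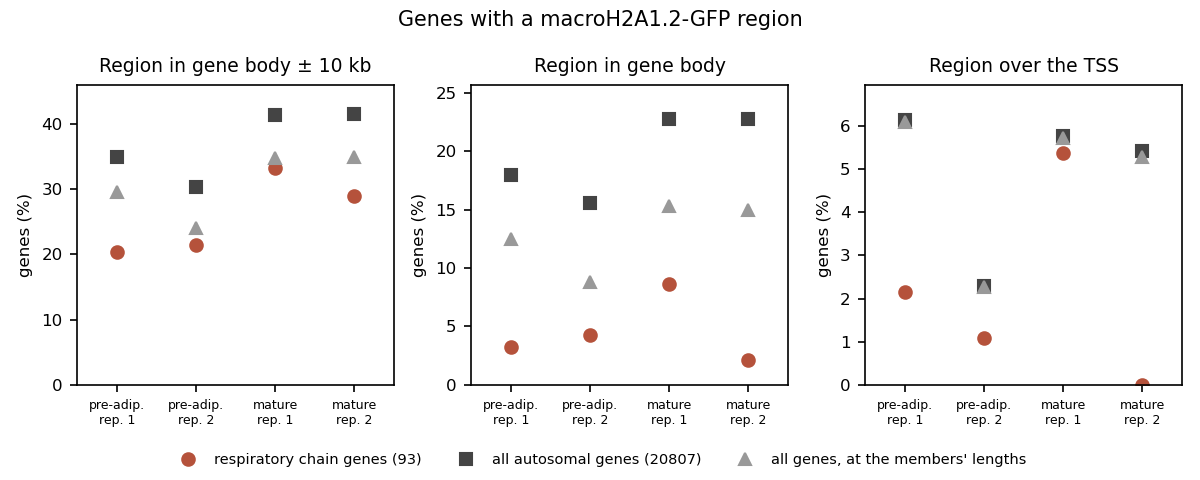
Percent of genes (vertical axis) with a region in the gene body plus 10 kb on each side (left), in the gene body (middle) and over the transcription starting site (right), in each sample. Circles are the 93 respiratory chain genes, squares all 20807 autosomal protein-coding genes and triangles all genes weighted to the members' lengths, and the circles lie lowest in every sample of all 3 panels.

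In at least 1 sample a region lay near 38 of the 93 members (40.9%), against 53.7% of all genes and 46.3% at the members' lengths. In both pre-adipocyte replicates it did so for 13 members (14.0%), against 24.2% of all genes and 19.1% at the members' lengths. In both mature replicates it did so for 21 members (22.6%), against 34.4% and 28.3%. Only 9 members (9.68%) had a region in all 4 samples, where the share was 21.1% over all genes and 16.2% at the members' lengths. Regions were found in 1, 2 and 3 samples for 8, 10 and 11 members, so most members with a region did not have one in every library. For the 55 members without any, the nearest region in any sample lay from 10.1 kb (Ndufb9) to 627 kb (Cox7b2) from the gene, with a median of 25.5 kb.

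The mean number of members with a region before differentiation was 19.5 ± 0.707, and 29 ± 2.83 in mature adipocytes (SD, n = 2 each), a difference of 9.5 members. The replicates of the conditions did not overlap, and the two-sided exact permutation test gave p = 0.3333, the smallest p that 2 samples against 2 allow. The size and direction depended on which regions were counted. Among regions of at least 2-fold enrichment the members numbered 3, 13, 9 and 9, a difference of 1, and in the gene body alone the difference was 1.5 (exact permutation p = 1 for both). The share over all genes was not computed for the fold cutoff, and the median fold over all regions was 1.61, 2.01, 1.79 and 1.82. For the gene body the share over all genes went from 16.8% to 22.8%. When each sample was reduced to the number of regions of the sample with the fewest, by lowest FDR (an alternative chosen after seeing the data), the members with a region numbered 19, 18, 16 and 13, and the difference was -4 (exact permutation p = 0.3333). All genes moved the same way in both settings, from 32.7% to 41.5% with all regions and from 32.1% to 29.3% with equal numbers.

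No member had a region in both pre-adipocyte replicates and in no mature one (0.913% of all genes did). In the opposite pattern were 5 members, Ndufa11, Ndufv2, Ndufaf2, Cox6a2 and Atp5o, or 5.38% of members against 4.86% of all genes and 4.31% at the members' lengths. That share is near the background. For 2 of them the pre-adipocyte replicates had a region just beyond the 10 kb limit, 12860 and 11860 bp from Ndufa11 and 10914 bp from Atp5o.

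Regions covered less of the members' gene bodies than of their surroundings. A region overlapped the body of 3, 4, 8 and 2 members, of 12 in at least 1 sample (12.9%), against 31.1% of all genes and 22.5% at the members' lengths. In at least 3 samples this held for 1 member, the long Atp5o record, against 15.6% of all genes. Of the bases in member bodies 0.953%, 0.513%, 1.17% and 0.538% lay in regions, against 7.37%, 3.46%, 7.89% and 7.65% in the bodies of all genes. In the flanking 10 kb the members had 6.16%, 3.80%, 6.10% and 5.15%, and all genes 13.3%, 6.03%, 12.9% and 12.3%. Flanks therefore exceeded bodies in members and in all genes, and members lay below all genes in both compartments in the 4 samples. These shares of bases over all genes were not matched for length.

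Of the regions near members, 12, 16, 22 and 24 lay upstream of the gene, 9, 6, 12 and 11 downstream, and 3, 4, 10 and 3 overlapped it, counted once for each member. Coverage fell sharply just past the start of the gene. In the 5 kb before the transcription starting site (TSS) the members had 8.07%, 4.83%, 8.41% and 7.12% of bases in regions, and in the 5 kb after it 1.33%, 0.00989%, 0.973% and 0.0381%. Over all genes, not matched for length or CpG, coverage also fell, but by less. The values were 11.4%, 5.14%, 10.7% and 10.1% before the TSS and 6.60%, 3.03%, 6.92% and 6.39% after it. The mean coverage within 5 kb of the TSS divided by that at 50 to 100 kb was 0.379, 0.415, 0.373 and 0.317 for members and 0.806, 0.813, 0.783 and 0.770 for all genes. At 50 to 100 kb upstream the members' coverage (15.3%, 7.55%, 14.99% and 13.1%) was above that of all genes (11.9%, 5.39%, 12.1% and 11.6%). At 50 to 100 kb downstream it was slightly below (9.57%, 4.10%, 10.2% and 9.53%, against 10.4%, 4.65%, 10.4% and 9.90%).

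**Figure D2:**
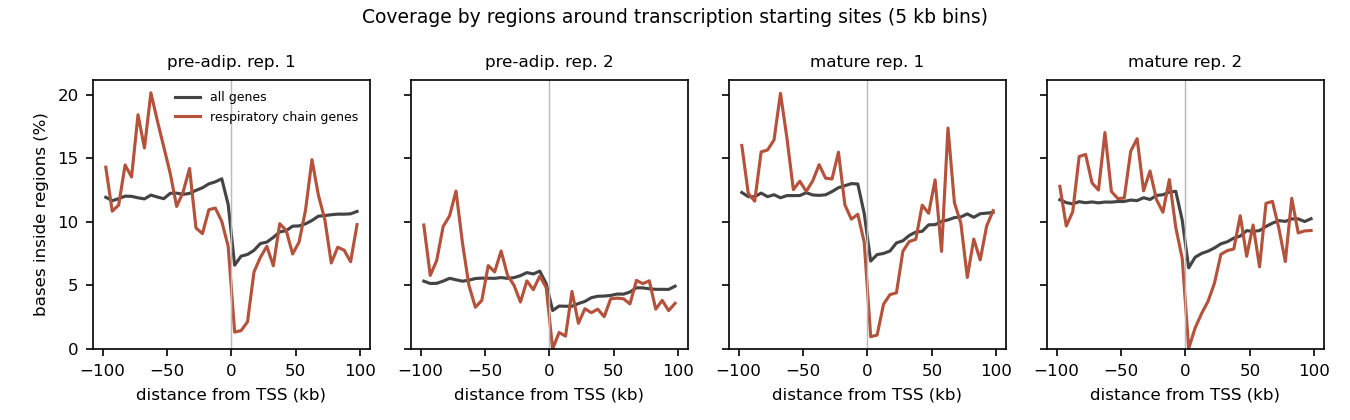
Percent of bases inside regions (vertical axis) in bins of 5 kb by distance from the TSS in kb along the gene's strand (horizontal axis), 1 panel per sample. The red line (respiratory chain genes) drops to between 0.00989% and 1.33% in the first 5 kb of the gene, where the dark line (all genes) stays between 3.03% and 6.92%.

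Summed over merged member windows (3.29 Mb), regions covered 3.86%, 2.35%, 3.92% and 3.12%, against 8.48%, 3.94%, 8.83% and 8.54% of all gene windows, not matched for length. The difference between mature adipocytes and pre-adipocytes was 0.413 percentage points (3.52 ± 0.570 against 3.11 ± 1.07, SD, n = 2 each, exact permutation p = 0.667). The samples of the conditions overlapped. The difference was -0.343 points without pre-adipocyte replicate 2 and -1.28 points with equal numbers of regions. Over the genome the regions covered 280, 139, 294 and 285 Mb. Pre-adipocyte replicate 1, which set the equal number, had the fewest regions but the longest (median 5800 bp). Coverage of all gene windows with equal numbers was not computed, so the -1.28 points have no background beside them.

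The TSS itself lay in a region for 2, 1, 5 and 0 members, with a mean of 1.5 ± 0.707 before differentiation and 2.5 ± 3.54 in mature adipocytes (SD, n = 2 each, exact permutation p = 1). The spread in mature adipocytes exceeded the difference of 1, which was -1.5 without mature replicate 1 and -1.5 with equal numbers of regions. The members concerned were 8 (8.60%, against 11.7% of all genes), and none had its TSS in a region in at least 2 samples, where 5.06% of all genes did. They were Cox4i2 and Ndufv1 in pre-adipocyte replicate 1, Cox6c in replicate 2, and Ndufa8, Ndufa4, Ndufaf6, Cox7a2l and Atp5o in mature replicate 1. Those among them that are not in the lists of members with regions in all samples or in 1 condition (Ndufv1, Ndufa8, Ndufa4, Ndufaf6 and Cox7a2l) are named here after their values were seen.

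Promoters of members are rich in CpG, and over all genes the TSS of CpG-rich promoters lay in regions less often. The median ratio of observed to expected CpG in the 250 bases before the RefSeq start was 0.783 over 72 member records with a promoter in the table and 0.577 over 15630 genes, with a median GC content of 56.4% in both. In 5 classes of rising CpG ratio the TSS lay in a region in at least 1 sample for 15.2%, 18.9%, 11.7%, 7.04% and 3.61% of all genes, and these classes held 1, 3, 21, 23 and 24 members. Length and CpG were then matched together, in 5 length classes (10 were used above) crossed with the 5 CpG classes. At the members' lengths and CpG classes together, 6.81% of all genes had their TSS in a region, against 6.94% of the 72 members. For the gene body the shares were 15.9% and 11.1%, and for the window of 10 kb 48.2% and 41.7%. With the TSS in a region in at least 2 samples, the shares were 2.33% of all genes at these lengths and CpG classes and 0 of the 72 members. The members' share at the TSS was thus close to that of such genes for at least 1 sample, and those in the body and window were lower. For at least 2 samples, 2.33% of 72 records is so few genes that 0 lies near it.

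**Figure D3:**
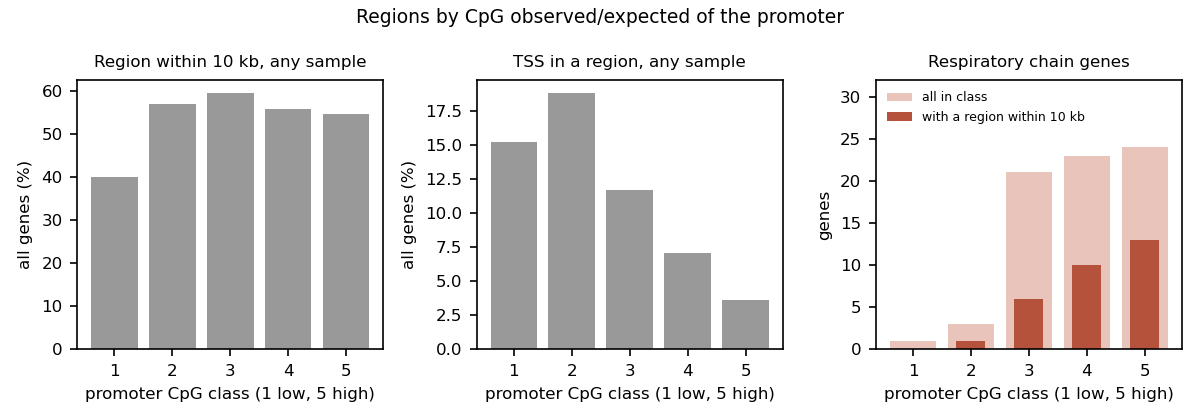
All genes with a region within 10 kb (left, percent) or with the TSS in a region (middle, percent) in at least 1 sample, and number of respiratory chain genes (right), in 5 classes of promoter CpG ratio from low to high (horizontal axis). The share with the TSS in a region falls from 18.9% in class 2 to 3.61% in class 5, and classes 3, 4 and 5 hold 21, 23 and 24 members, of which darker bars count those with a region within 10 kb.

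Exact letters of 4 motifs were searched on both strands of these 250 bases. The NRF1 letters GCGCATGC were in 10 member promoters (13.9%) and in 3.18% of all promoters, the ETS letters CCGGAAGT in 3 (4.17%) and 4.14%, the YY1 letters AAGATGGCG in 0 and 0.710%, and the ERR letters TCAAGGTCA in 1 (1.39%) and 0.326%. The NRF1 letters overlap their own reverse complement in the stretch GCATGC. The window of 250 bases was set after the counts in the table's full 300 bases, which reach 50 bases past the start, had been seen. In 300 bases the members with a match numbered 13 for NRF1 (18.1%, against 3.81% of all promoters), 5 for ETS (6.94%, against 5.69%), 7 for YY1 (9.72%, against 2.03%) and 2 for ERR (2.78%, against 0.339%). The YY1 count thus depended on the 50 bases past the start. The 10 members with NRF1 letters in 250 bases, listed by the match alone, were Atp5g2, Atp5k, Atp5l, Cox6a1, Cycs, Ndufa11, Ndufa6, Ndufa8, Ndufaf4 and Sdhb. Of these 10, 5 had a region within 10 kb in at least 1 sample, as did 41.7% of the 72 members with a promoter and 53.7% of all genes. In the promoters printed above, the NRF1 match of Cycs began 60 bases and the ERR match of Atp5g3 52 bases before the end of the printed sequence.

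**Figure D4:**
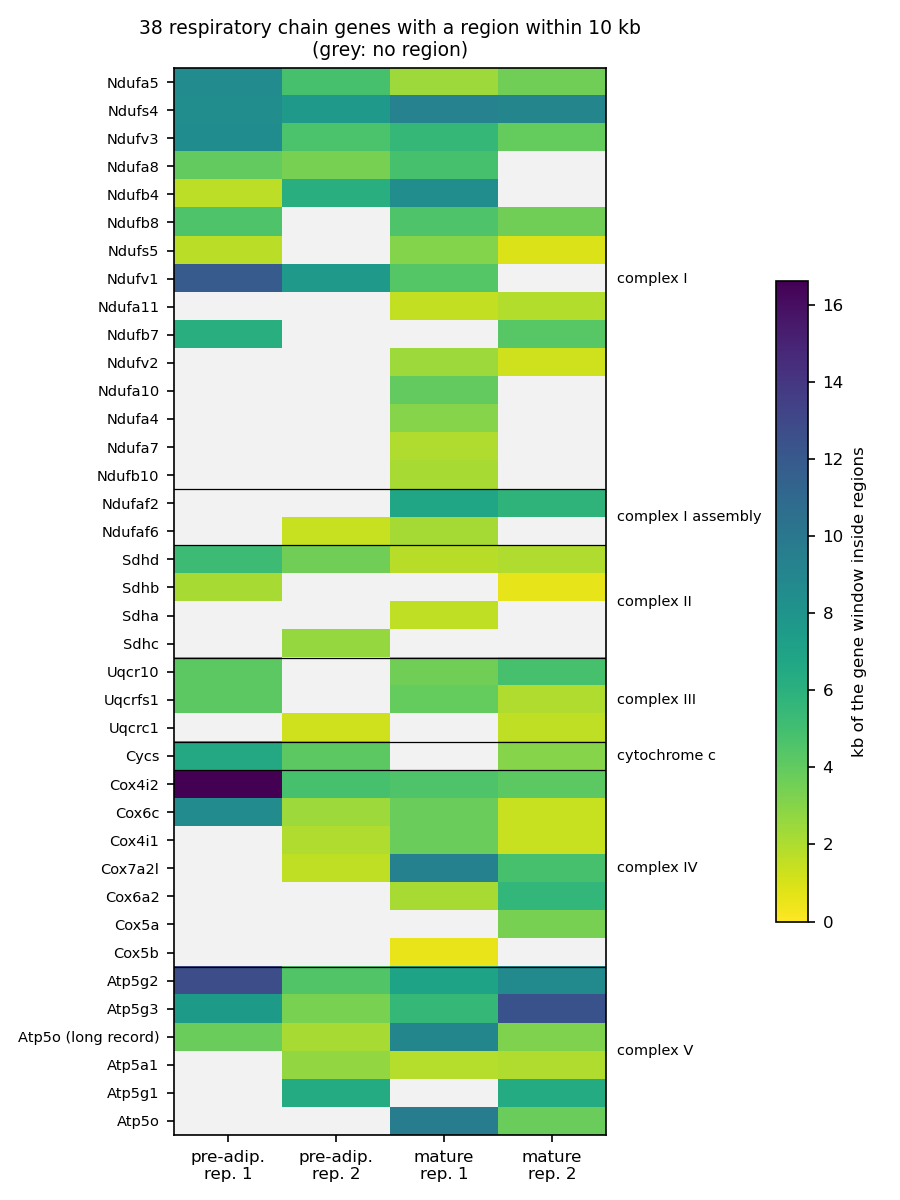
Kilobases of each gene window (gene body plus 10 kb on each side) inside regions (colour), for the 38 members with a region in at least 1 sample (rows, grouped by complex) in the 4 samples (columns). Grey cells had no region, and 9 rows are coloured in every column.

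In complex I, which oxidises NADH, 15 of 36 genes had a region in at least 1 sample (9, 6, 14 and 8 by sample), and Ndufa5, Ndufs4 and Ndufv3 had one in all 4. For this and the complexes below, the share with a region in at least 1 sample was 53.7% over all genes. It was 46.3% at the lengths of all 93 members, which is not matched to the lengths of any single complex. Ndufa5 (chr6:24518666-24528013) encodes an accessory subunit of the arm that faces the matrix, and 29.3%, 16.4%, 8.18% and 12.3% of its window lay in regions. Pre-adipocyte replicates were above mature ones here, and all regions lay upstream, the nearest in each sample 1388, 3988, 5188 and 4188 bp from the gene, in a stretch that overlaps Asb15. Ndufs4 (chr13:114287795-114388258) encodes an accessory subunit needed for a stable complex, whose loss causes a mitochondrial disease. Regions covered 7.02%, 6.36%, 7.69% and 7.52% of its window, which was close to even over samples. They began 343, 743, 743 and 143 bp upstream of the gene and left its TSS outside. Inside its body, regions were called in pre-adipocyte replicate 2 and mature replicate 2, at chr13:114357401-114360400 and chr13:114358401-114360400.

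Ndufv3 (chr17:31520115-31531331) encodes a small accessory subunit next to the NADH-oxidising site. Its regions covered 27.3%, 15.2%, 17.7% and 12.6% of the window and all lay downstream, from 1470, 5270, 4470 and 5270 bp past the gene, in a broad domain that reached to chr17:31552800 in pre-adipocyte replicate 1. Fold enrichment over control of the region nearest the gene was 1.96, 2.10, 1.90 and 1.79. Ndufv1 (chr19:4007384-4012806), the core subunit that binds NADH and FMN and whose promoter is printed above, had 46.5%, 29.9%, 17.3% and 0% of its window covered. The region of pre-adipocyte replicate 1 (chr19:4011601-4023800, 1.23-fold, FDR 4.66e-05) held the whole printed sequence, while those of the next pair of samples stopped 1195 and 3995 bp upstream.

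Complex I genes with regions in both mature replicates alone were Ndufa11, a membrane arm subunit, and Ndufv2, a core subunit with an iron-sulfur cluster. For Ndufa11 (chr17:56717767-56722141) regions of the mature replicates covered 6.32% and 7.96% of the window and lay 8460 and 8060 bp downstream, with 1.63-fold and 2.00-fold enrichment. The same stretch was called in all 4 samples farther from the gene, so this pattern rests on where the regions ended relative to the 10 kb limit. For Ndufv2 (chr17:66078638-66101559) the covered shares were 5.59% and 2.796%, from a region in the gene body in replicate 1 and one 5042 bp upstream in replicate 2, which are different places. Ndufaf2, an assembly factor that acts late in building complex I, is long (155909 bp, chr13:108002715-108158623), had 3.87% and 3.30% covered, and shared between the mature replicates the stretch chr13:108150201-108153400 with chr13:108151201-108153800. Of the 8 assembly factors in the rule, 2 had a region (0, 1, 2 and 1 by sample).

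Ndufa4, first assigned to complex I and now regarded as a subunit of complex IV, had a region in mature replicate 1 alone (chr6:11906601-11909600, 1.61-fold, FDR 4.05e-06), which covered its TSS and all 203 printed bases and also overlapped Phf14. Ndufa8, an accessory subunit of the membrane arm, had 12.1%, 10.3%, 14.5% and 0% of its window covered, by regions that began 195 and 395 bp upstream of the gene in pre-adipocytes and overlapped its TSS in mature replicate 1. Neither gene had the same call in both mature replicates.

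All 4 genes of complex II, the enzyme shared with the citric acid cycle, had a region in at least 1 sample, but Sdhd alone had one in every sample. Sdhd (chr9:50596357-50603812), a membrane anchor, had 19.1%, 13.1%, 6.56% and 7.28% of its window covered. The same place 4757, 5557, 5357 and 5157 bp downstream of the gene was called each time, with 2.18-fold, 3.32-fold, 2.27-fold and 2.49-fold enrichment. The region was longest in pre-adipocyte replicate 1 (5800 bp) and shorter in the mature replicates (1800 and 2000 bp). Sdha, the flavoprotein that binds succinate, had 1 region in mature replicate 1, 521 bp upstream of the gene and overlapping Ccdc127 (3.33% of the window). Sdhb, the iron-sulfur subunit, had 5.79% covered in pre-adipocyte replicate 1 (downstream) and 1.57% in mature replicate 2 (9403 bp upstream, overlapping Padi2). Sdhc, the other anchor, had 5.99% covered in pre-adipocyte replicate 2 alone.

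In complex III, which reduces cytochrome c, 3 of 9 genes had a region (2, 1, 2 and 3 by sample) and none had one in all samples. The 3 were Uqcr10, a small subunit, Uqcrfs1, the Rieske iron-sulfur protein, and Uqcrc1, a core protein, named after their values were seen. Uqcr10 had 18.8%, 0%, 16.1% and 21.6% of its window covered, Uqcrfs1 16.6%, 0%, 15.5% and 7.98%, and Uqcrc1 0%, 3.64%, 0% and 4.85%. The shallow pre-adipocyte replicate 2 lacked the regions of the first pair. Cyc1, the cytochrome c1 subunit, had no region within 10 kb in any sample, and the nearest lay 16523 bp away. Cycs (chr6:50562563-50566538), the soluble electron carrier, had 27.5%, 17.5%, 0% and 12.5% covered. Its regions lay downstream in both pre-adipocyte replicates, 5563 and 2163 bp from the gene, and upstream in pre-adipocyte replicate 1 and mature replicate 2, 5063 and 5463 bp away, and none reached its printed promoter.

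Complex IV, cytochrome c oxidase, had 7 of 17 genes with a region (2, 4, 6 and 6 by sample). Cox4i2 (chr2:152754173-152765037), the isoform of subunit 4 known for its induction by low oxygen, had 53.8%, 15.6%, 14.9% and 13.6% of its window covered. A single region of 16600 bp (chr2:152746401-152763000, 1.44-fold) crossed its TSS in pre-adipocyte replicate 1. The other samples had shorter regions 3973, 1973 and 1773 bp upstream, and pre-adipocyte replicate 2 a further one in the gene body. The replicates of pre-adipocytes thus differed more from each other than the latter did from the mature samples.

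Cox6c (chr15:35925886-35938246), a small accessory subunit, had 26.6%, 7.42%, 11.7% and 4.33% of its window covered, all at its upstream side. The regions had 1.67-fold, 2.03-fold, 2.32-fold and 2.09-fold enrichment and started 155 bp upstream in pre-adipocyte replicate 1, across the TSS in replicate 2, and 5155 and 3555 bp upstream in the mature replicates. Cox6a2, the heart and muscle isoform of subunit 6a and the shortest member (953 bp, chr7:128205435-128206387), had regions in both mature replicates alone, 10.5% and 26.7% of the window, at 2.89-fold and 2.22-fold enrichment, 5414 and 4414 bp upstream in a stretch that overlaps Itgad. Cox7a2l, which links complexes into supercomplexes, had 0%, 4.52%, 26.3% and 13.6% covered, with a region over its TSS in mature replicate 1.

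Complex V, the ATP synthase, had 6 of 18 gene records with a region (3, 5, 5 and 6 by sample). Among them were Atp5g1, Atp5g2 and Atp5g3, the genes whose different precursors give the same mature c subunit of the proton-driven ring. Atp5g3 (chr2:73908447-73911326) had 32.9%, 14.5%, 24.2% and 54.2% of its window covered and mature replicate 2 was highest. Its upstream regions ended 2475, 6675, 4475 and 75 bp from the gene, so that in mature replicate 2 the region (1.25-fold, FDR 5.23e-05) held 176 of the 250 printed bases. Atp5g2 (chr15:102662864-102672352) had 43.0%, 15.4%, 23.7% and 29.7% covered, with upstream regions 49, 6849, 2249 and 449 bp from the gene, and downstream ones in the pre-adipocyte replicates. Atp5g1, named after its values were seen, had 23.9% covered in pre-adipocyte replicate 2 and in mature replicate 2 and none in the others, from regions 731 and 2531 bp upstream.

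Atp5o encodes the subunit that ties the catalytic head to the stator. Its short record had regions in the mature replicates alone, with 36.3% and 14.4% of the window covered. Both had a region from chr16:91933801, 2114 bp upstream of the gene (1.35-fold and 1.43-fold), and replicate 1 a further one over the TSS that held all 193 printed bases (1.52-fold). In both pre-adipocyte replicates the nearest region lay 10914 bp from the gene, so the absence there rests on the 10 kb limit. The long record had 1.45%, 0.838%, 3.42% and 1.21% covered, in part by the same regions and otherwise by regions within Itsn1. Without that record 8 members had a region in all 4 samples.

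**Figure D5:**
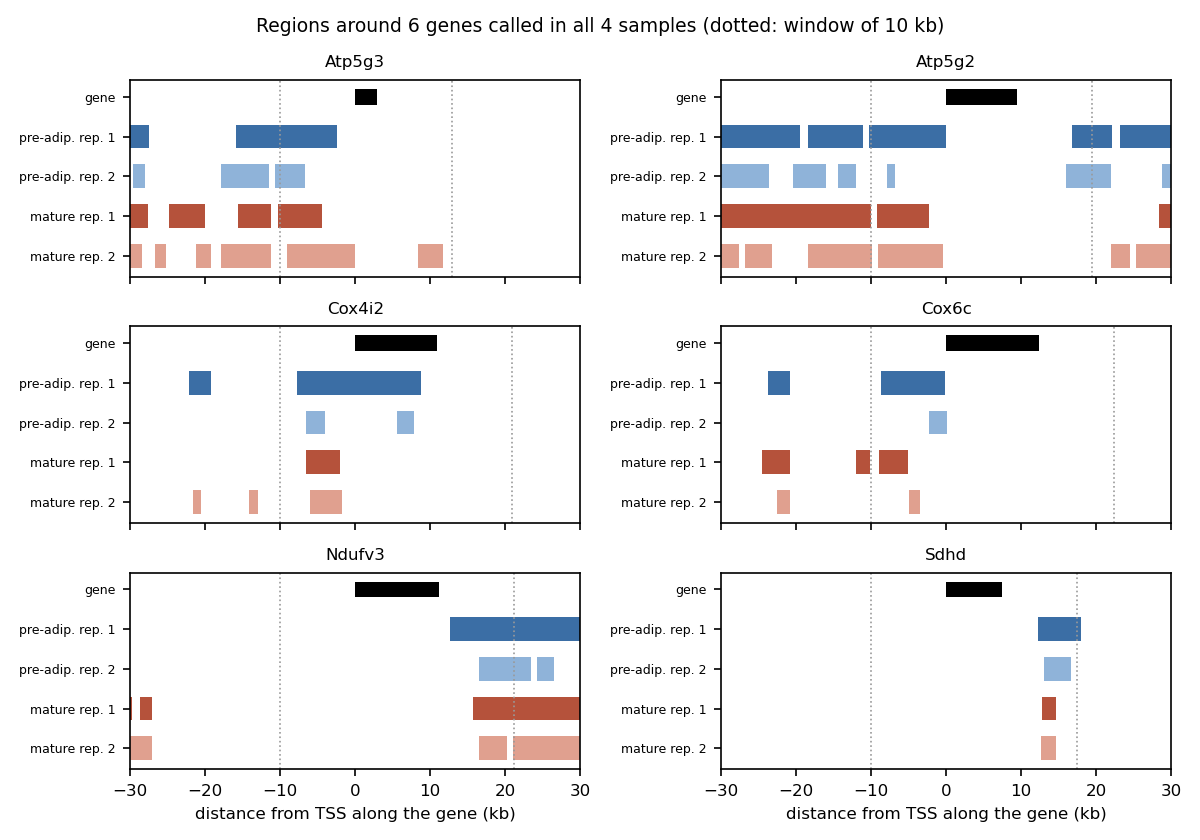
Regions (coloured bars, 1 row per sample) around 6 members with a region in all 4 samples, by distance from the TSS in kb along the gene (horizontal axis), with the gene as a black bar and dotted lines 10 kb beyond its ends. Inside the dotted lines the regions of Cox6c lie upstream or at the TSS, those of Ndufv3 and Sdhd downstream and those of Atp5g2 on both sides, and the bar of pre-adipocyte replicate 1 crosses the TSS of Cox4i2.

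Enrichment in the regions near members was low. Fold enrichment ran from 1.19 to 4.50 over the 24, 26, 42 and 37 regions near members, with medians of 1.53, 2.00, 1.70 and 1.73, against 1.61, 2.01, 1.79 and 1.82 for all regions. The median near members was lower than over all regions in each sample, and the mature minus pre-adipocyte difference was -0.0518 (1.71 ± 0.0234 against 1.76 ± 0.329, SD, n = 2 each, exact permutation p = 1). Without pre-adipocyte replicate 2 this difference was 0.181. Median region lengths near members were 5700, 2900, 2600 and 3200 bp.

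Read density between conditions could be tested where merged regions were called in all 4 samples, which was so for 12857 of 62927 merged regions and for 11 of the 57 near members. DESeq2 gave none of the 11 an adjusted p, so it could not call any of them. In edgeR's quasi-likelihood test none of the 11 passed an adjusted p under 0.05, and 1 had an unadjusted p under 0.05. Over all tested regions 10 (0.0778%) were higher in mature adipocytes and 1 (0.00778%) in pre-adipocytes, and 1176 had an unadjusted p under 0.05. The count of 11 became 112 without pre-adipocyte replicate 1, 224 without pre-adipocyte replicate 2, 5 without mature replicate 1 and 1 without mature replicate 2. In each of these fits 1 condition has a single sample, which is assumed to vary like the pair of the other condition.

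The smallest p near a member was at the downstream side of Atp5g2 (chr15:102626001-102656400), where 4.27, 2.27, 4.10 and 3.70 ChIP reads per 100 bp of called length were counted. These densities are not scaled for depth, and pre-adipocyte replicate 2 was lowest in all 11 regions. The mature over pre-adipocyte log2 ratio was -0.26 (SE 0.0773, edgeR adjusted p = 0.191). Without pre-adipocyte replicate 2 edgeR gave an adjusted p of 0.0260 for this region, from a fit with 1 pre-adipocyte sample whose spread rests on the mature pair alone, so this value is no replicated call. The log2 ratios of the other 10 regions, near Ndufb7, Atp5g3, Ndufa11, Ndufa5, Sdhd, Ndufv3, Cox4i2, Ndufs4, Cox6c and again Atp5g2, lay between -0.14 and 0.20, with edgeR adjusted p from 0.612 to 0.981. The median over the 11 was 0.07, and -0.00066 over all tested regions.

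Genes that serve the same organelle, on lists drawn up with earlier results of these data known, were counted in the same way. Of 41 assembly factors outside the rule, such as Surf1 and Sco1 for complex IV, 14 had a region in at least 1 sample (34.1%, against 50.6% of all genes at their lengths) and none in all 4. Of 16 regulators, 7 had one (43.8%, against 54.8%), and 1 had one in all 4 samples, Ppargc1a, which encodes PGC-1α, with 12.4%, 10.8%, 12.3% and 12.3% of its window covered. Cytosolic ribosomal protein genes, which are short and broadly expressed, had regions at 32 of 84 (38.1%, against 42.0%), and olfactory receptor genes, which are silent in most tissues, at 170 of 1128 (15.1%, against 42.8%). The members' 40.9% against 46.3% lay nearest to the ribosomal protein genes among these lists.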

How the data were processed

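ChIP-Seq regions of macroH2A1.2-GFP were analysed for 2 pre-adipocyte and 2 mature adipocyte samples. Reads were mapped by the authors to mm10 with Bowtie (1.1.2), keeping unique alignments. They then removed duplicates with Picard and called regions in each sample with SICER (1.1) against 1 control library without antibody. The deposited tables hold raw counts of ChIP and control reads for each region, the p-value and FDR given by SICER, and the fold enrichment, which the authors scaled by library size. They hold no coverage outside regions. The largest deposited FDR was 0.001.

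Regions were taken as 0-based with a closed end and converted to 1-based. Genes were those of GENCODE M21, and promoters those of RefSeq (GRCm38.p6). Overlap needed 1 bp. The members and gene lists were chosen with earlier results of these data known, as was the rule for named genes: a region in the body in at least 3 samples, in the window in all 4 samples or in both replicates of 1 condition alone, the TSS in a region in at least 2 samples, all Sdh genes, Cycs and Cyc1, or a passing merged region. Background shares were computed over all genes in 10 length classes weighted to the members. Shares matched for length and CpG together used 5 length classes crossed with 5 CpG classes. Samples were compared by two-sided exact permutation tests. ChIP counts of merged regions called in all 4 samples were tested with edgeR (4.0.16) quasi-likelihood and Benjamini-Hochberg adjustment, offset by log called length, with library sizes and TMM factors taken from counts divided by relative called length. Scripts were tested on simulated data, and the first version of this fit, with TMM on raw counts, was replaced because it failed that test. The window for promoter motifs and CpG was cut from 300 to 250 bases after the first counts were seen, since the last 50 bases lie in the gene, and both are given for the motifs. DESeq2 (1.42.0), R 4.3.3, limma 3.58.1, Python 3.11.15, numpy 2.4.6, pandas 2.3.3 and scipy 1.17.1 were used. Alternatives covered the FDR, the fold, the window, the overlap, the length classes, normalizations and each replicate left out.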

Additional observations from a re-analysis of the deposited data

How the results depend on the processing

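The difference in members with a region (9.5) was -4 with equal numbers of regions per sample (exact permutation p = 0.3333), 1 at a fold of at least 2 and 1.5 for the gene body alone (exact permutation p = 1 for both), 6 within 5 kb, 12.5 within 25 kb, and 7.5 to 11.5 when a replicate was left out. Coverage of member windows turned to -1.28 percentage points with equal numbers of regions (exact permutation p = 0.3333), was 0.0876 at a fold of at least 2 and 1.78 within 25 kb, and ranged from -0.343 to 1.17 with a replicate left out (0.00943 without mature replicate 1). The number of members with the TSS in a region differed by -1.5 with equal numbers of regions (exact permutation p = 0.3333), by -0.5 at a fold of at least 2, and by -1.5 to 3.5 with a replicate left out, and the median fold by -0.284 to 0.181. The causes were not tested.

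At an FDR at or below 1e-05, 4 members had a region in both pre-adipocyte replicates and 3 in all 4 samples. At a fold of at least 2 the counts for at least 1 sample, both pre-adipocyte replicates, both mature replicates and all 4 samples were 20, 1, 5 and 1. In the same order they were 12, 2, 1 and 0 for the gene body alone and 63, 27, 40 and 24 within 25 kb, and within 5 kb the last 3 were 7, 10 and 2. With equal numbers of regions 9 members had a region in both mature replicates and 4 in all 4 samples. Among these counts, the share over all genes was computed only for the gene body in at least 1 sample (31.1%, against 12.9% of members). The others have no background beside them and do not show how members compare with other genes.

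The number of merged regions passing in edgeR, 11 in all, was 18 without TMM, 0 with library sizes relative to control (68 at an unadjusted p under 0.05), 56 with at least 100 reads in every sample, 3 without the length offset and 6 with DESeq2, and ranged from 1 to 224 with a replicate left out, where 1 condition has a single sample assumed to vary like the other pair. Near members the number passing was 0 in each edgeR setting that kept all 4 samples. These settings tested 11 regions near members, but 5 with at least 100 reads in every sample. DESeq2 gave none of the 11 an adjusted p. With the replicate number as a block, 27 merged regions passed, with 0 near members. The numbers did not pair the samples, however: the correlation of deviations was 0.00775 for samples with the same number and -0.00775 for those with different numbers. The differences between conditions not named here kept their sign, though not their size, and counts not named here stayed near their main values.

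The promoter window of 300 bases in place of 250 gave a median CpG ratio of 0.831 for members and 0.616 for all promoters, and TSS shares of 14.9%, 19.7%, 11.3%, 6.62% and 3.93% in the 5 CpG classes. With 2 samples per condition and 1 control library, no exact test passes 0.05, and pre-adipocyte replicate 2, at 0.549 of the control library, was the least able to show weak regions.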

Other observations

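Genes with the same prefixes on chromosome X, which the rule leaves out, had no region within 10 kb in any sample. They are Ndufb11, Ndufa1 and Cox7b, and the nearest region lay between 53.3 and 806 kb from them. The share over all genes of chromosome X was not computed.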
